A study of Mus musculus with 26 samples.

Results

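T follicular helper cells are CD4+ T cells that enter B cell follicles and help B cells form germinal centres. The 10 genes described here are core regulators and products of that state: the cytokine genes Il21 and Il4, the ligand gene Cd40lg, the receptor genes Cxcr5 and Icos, and the transcription factor genes Bcl6, Batf, Maf, Ascl2 and Tox2. They were taken by name from tables of 25814 genes, and all 10 were present in each of the 26 libraries. Expression was measured by RNA sequencing of T cells sorted by flow cytometry from Peyer's patches, the lymphoid follicles of the small intestine, of C57Bl/6 mice. CD4+ T cells came from mice on an elemental diet (n = 6), in which free amino acids replace intact protein, and from mice on a conventional diet (n = 6). A further pair of sorts, both from the conventional diet, held CD44+ T cells in 7 libraries and CD44- T cells in 7. CD44 is an adhesion receptor that is abundant on T cells that have met antigen. A CD4 gate is not mentioned for the CD44 sorts, nor are separate animals for the libraries of a group, so that p-values measure the spread between these libraries, which may in part be technical.

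CXCR5 draws a T cell towards the chemokine CXCL13 in the follicle, and ICOS is the costimulatory receptor that maintains the follicular helper state. BCL6 is a transcriptional repressor that is required for this state, while MAF and BATF act on the cytokine genes. IL-21 and IL-4 act on B cells, and CD40 ligand gives the contact signal that germinal centre B cells need. In Peyer's patches germinal centres are present without immunization, in response to gut antigen and bacteria.

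Promoters are printed for the cytokine genes Il21 and Il4 and for Bcl6, the repressor required for the follicular helper state. They were picked with the comparisons described further on already known. The RefSeq promoter table of GRCm38.p6 held 6 of the 10 genes, namely Il21, Il4, Bcl6, Batf, Ascl2 and Tox2. The 250 bases before the start are shown 5′ to 3′ on the gene's strand, and capitals mark the motif matches. The Il21 window is chr3:37232637-37232886 on the minus strand, the Il4 window is chr11:53618666-53618915 on the minus strand, and the Bcl6 window is chr16:23988853-23989102 on the minus strand.
Il21: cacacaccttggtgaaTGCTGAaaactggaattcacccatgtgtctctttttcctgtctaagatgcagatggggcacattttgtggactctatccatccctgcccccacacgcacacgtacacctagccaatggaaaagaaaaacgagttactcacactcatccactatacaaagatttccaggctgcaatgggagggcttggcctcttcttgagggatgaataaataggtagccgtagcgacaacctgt
Il4: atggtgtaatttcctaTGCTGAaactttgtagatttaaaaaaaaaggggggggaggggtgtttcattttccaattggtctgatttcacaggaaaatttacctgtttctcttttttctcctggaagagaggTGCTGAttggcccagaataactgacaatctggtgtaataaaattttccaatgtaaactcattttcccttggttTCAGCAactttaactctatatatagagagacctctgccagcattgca
Bcl6: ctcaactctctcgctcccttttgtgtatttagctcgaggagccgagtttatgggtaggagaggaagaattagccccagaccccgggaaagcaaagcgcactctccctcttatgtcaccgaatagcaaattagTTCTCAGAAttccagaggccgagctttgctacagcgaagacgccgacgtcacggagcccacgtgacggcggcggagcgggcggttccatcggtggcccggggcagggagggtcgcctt
Searches on both strands used an AP-1 motif (TGANTCA), a STAT motif (TTCNNNGAA), an E-box (CAGCTG) and a MARE core (TGCTGA, a part of the element that MAF proteins bind). The MARE core was found once in the Il21 window and 3 times in the Il4 window, and 16.1% of 32851 mouse promoter windows of the same length held at least 1 copy. The Bcl6 window held 1 STAT motif, which 7.02% of all windows held. The AP-1 motif, held by 6.75% of all windows, and the E-box, held by 13.0%, were in none of the 6 windows. These matches describe the letters of the windows only.

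A library held 17331588 to 22430541 exon reads in the elemental group, 16401589 to 25415205 in the conventional group, 7180390 to 9991782 in the CD44+ group and 7933600 to 13378353 in the CD44- group. CD4+ libraries were made from 22 ng of RNA with poly(A) selection, and CD44 libraries from 1 ng with a low-input kit, so that the cell population and the kit cannot be told apart and no level was compared between those pairs of groups. Introns took 3.33% to 4.08% of gene reads on the elemental diet and 3.97% to 4.61% on the conventional diet, against 20.6% to 29.0% in CD44+ and 9.39% to 27.0% in CD44- libraries. Among all tested genes the median SD of log2 CPM within a group was 0.29 and 0.31 on the elemental and conventional diets, and 1.36 and 1.41 in CD44+ and CD44- cells. The 12 T cell core genes (such as Cd3e and Lck) summed to 4652 to 5242 CPM on the elemental diet and 4701 to 5581 CPM on the conventional diet. In CD44+ and CD44- libraries they summed to 11194 to 14598 CPM and 9654 to 15804 CPM. None of these genes was at 0 in all libraries of a group.

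The first comparison asked how the elemental diet altered these genes in CD4+ T cells. Il21, Cxcr5, Icos, Bcl6, Ascl2 and Tox2 fell on the elemental diet, by 0.83 to 1.41 on the log2 scale. Il4, Cd40lg, Batf and Maf did not pass the test. All 10 genes were tested, 6 were called lower and 0 higher by edgeR's quasi-likelihood test at a Benjamini-Hochberg adjusted p under 0.05, where 7.75% of the 11938 genes tested were called lower, 9.68% higher and 17.4% in either direction. The median log2 fold change was -0.91 over the 10 genes and -0.01 over all genes tested. In bulk libraries, fewer cells of a type and less RNA per cell cannot be told apart.

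**Figure D1:**
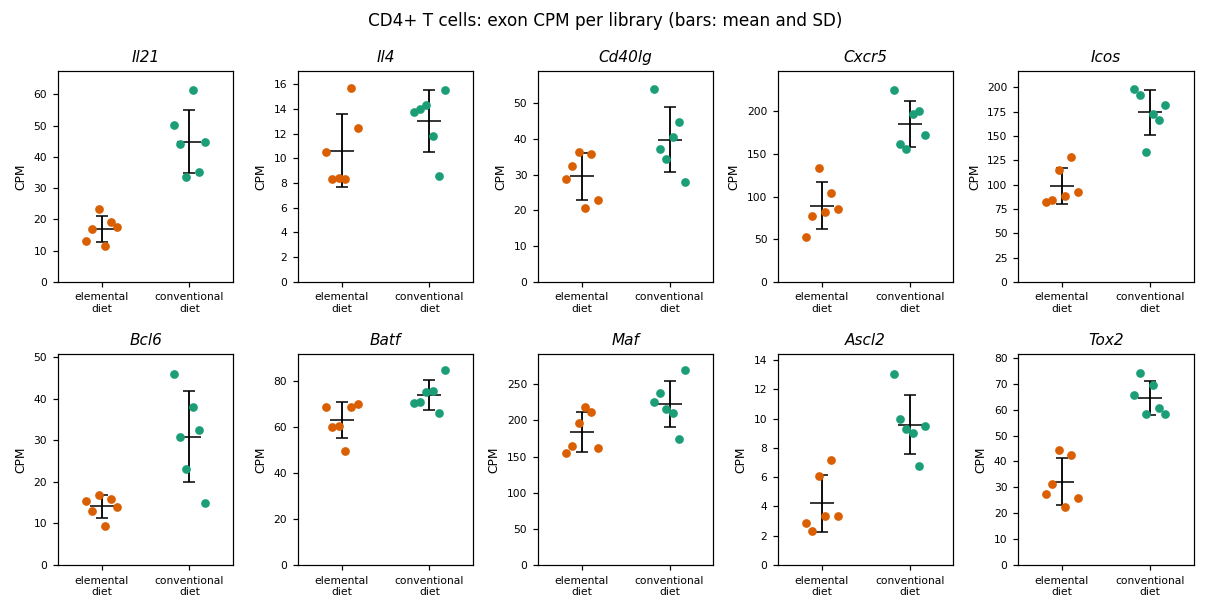
Exon CPM (linear axis from 0) of the 10 genes in each CD4+ library, elemental diet left and conventional diet right (6 points each, bars are the mean and SD). Il21, Cxcr5, Icos and Tox2 have no overlap between the diets, while the points of Il4, Cd40lg, Batf and Maf overlap.

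Among the cytokines and the ligand, Il21 (ENSMUSG00000027718, chr3:37222759-37232636) ranged from 11.5 to 23.3 CPM with a median of 17.3 CPM on the elemental diet, and from 33.7 to 61.3 CPM with a median of 44.4 CPM on the conventional diet. CPM are exon reads relative to the TMM-scaled library size. Every elemental library lay below every conventional library. The means were 16.9 ± 4.23 and 44.9 ± 10.2 CPM (SD, n = 6 each), with a log2 fold change of -1.41 ± 0.18 (SE) and an adjusted p of 1.72e-04 in edgeR. This was the largest fall among the 10 genes in this fit. Il4 (ENSMUSG00000000869, chr11:53602982-53618669) ranged from 8.36 to 15.7 CPM with a median of 9.44 CPM on the elemental diet, and from 8.55 to 15.6 CPM with a median of 13.9 CPM on the conventional diet. The ends of these ranges lay close together and the groups overlapped. Of the 6 elemental libraries 5 lay below the conventional mean for Il4, with 3 below all conventional libraries, and 1 lay above all of them. The log2 fold change of Il4 was -0.29 ± 0.19 with an adjusted p of 0.295 in edgeR. Cd40lg (ENSMUSG00000031132, chrX:57212143-57224042) ranged from 20.8 to 36.3 CPM with a median of 30.5 CPM on the elemental diet, and from 27.8 to 54.1 CPM with a median of 38.9 CPM on the conventional diet. These groups overlapped too, with a log2 fold change of -0.44 ± 0.17 and an adjusted p of 0.0804 in edgeR. Without conventional replicate 6, the lowest conventional library for Cd40lg, the adjusted p was 0.0185, and limma-voom with sample weights gave 0.0211.

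Both receptors fell. Cxcr5 (ENSMUSG00000047880, chr9:44511787-44561877) ranged from 52.6 to 133 CPM with a median of 84.1 CPM on the elemental diet, and from 156 to 225 CPM with a median of 184 CPM on the conventional diet. The diets did not overlap, and the log2 fold change was -1.05 ± 0.17 with an adjusted p of 0.00139 in edgeR. Cxcr5 overlaps Bcl9l on the other strand, and whether reads were counted by strand is not given in the sources used here. Over all libraries Bcl9l had 3649 exon reads and Cxcr5 had 45430. Icos (ENSMUSG00000026009, chr1:60977927-61000320) ranged from 82.3 to 128 CPM with a median of 90.3 CPM on the elemental diet, and from 134 to 199 CPM with a median of 177 CPM on the conventional diet. Its diets did not overlap either, with a log2 fold change of -0.83 ± 0.12 and an adjusted p of 5.56e-04 in edgeR.

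Of the 5 transcription factors, 3 fell. Bcl6 (ENSMUSG00000022508, chr16:23965052-23988852) ranged from 9.35 to 16.9 CPM with a median of 14.7 CPM on the elemental diet, and from 15.0 to 46.0 CPM with a median of 31.7 CPM on the conventional diet. The overlap came from conventional replicate 6 at 15.0 CPM. The log2 fold change of Bcl6 was -1.14 ± 0.22 with an adjusted p of 0.00383 in edgeR. Tox2 (ENSMUSG00000074607, chr2:163203125-163324170), an HMG-box factor that promotes follicular helper development in mice, ranged from 22.3 to 44.4 CPM with a median of 29.4 CPM on the elemental diet, and from 58.2 to 74.2 CPM with a median of 63.0 CPM on the conventional diet. The diets did not overlap, and the log2 fold change was -0.998 ± 0.15 with an adjusted p of 7.02e-04 in edgeR. Ascl2 (ENSMUSG00000009248, chr7:142966829-142969264), a basic helix-loop-helix factor that induces Cxcr5, was the scarcest of the 10 genes. It ranged from 2.36 to 7.19 CPM with a median of 3.37 CPM on the elemental diet, and from 6.76 to 13.1 CPM with a median of 9.41 CPM on the conventional diet. The groups overlapped slightly, and the log2 fold change was -1.19 ± 0.27 with an adjusted p of 0.00832 in edgeR. On exon-exon junction reads alone, of which Ascl2 had 1 to 14 on the elemental and 8 to 19 on the conventional diet, its log2 fold change was -1.05 with an adjusted p of 0.213 in edgeR.

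Batf and Maf were among the more abundant of the 10 genes and did not pass the test. Batf (ENSMUSG00000034266, chr12:85686669-85709087), an AP-1 family factor needed for follicular helper and Th17 cells, ranged from 49.7 to 69.9 CPM with a median of 64.6 CPM on the elemental diet, and from 65.9 to 84.8 CPM with a median of 73.0 CPM on the conventional diet. The log2 fold change was -0.23 ± 0.10 with an adjusted p of 0.103 in edgeR, and the groups overlapped. Maf (ENSMUSG00000055435, chr8:115682942-115707794), a bZIP factor, ranged from 155 to 218 CPM with a median of 181 CPM on the elemental diet, and from 175 to 269 CPM with a median of 221 CPM on the conventional diet. Its groups overlapped as well, with a log2 fold change of -0.27 ± 0.11 and an adjusted p of 0.106 in edgeR.

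In all, 4 of the 10 genes had groups that did not overlap, each lower on the elemental diet, where 2.35% of the genes tested lay wholly lower. Before adjustment 9 of 10 had a p under 0.05, as had 33.8% of all genes. DESeq2 called 6 and limma-voom 7, and they called 23.5% and 34.3% of all genes. With any 1 library left out, 6 or 7 of the 10 were called, and 1299 to 3865 of all genes. The count of 7 came without conventional replicate 6, where 3865 of 12098 genes were called. The fit of all 4 groups shares 1 estimate of the spread with the CD44 libraries. It called 0 of the 10 and 2 of 11975 genes. The adjusted p of the 10 genes was at least 0.331 in edgeR, and the log2 fold change of Il21 was -1.40. Elemental replicate 3 was the highest of its group for 5 genes, namely Il21, Cd40lg, Cxcr5, Bcl6 and Tox2, and elemental replicate 4 was the lowest for 5, namely Il21, Cd40lg, Bcl6, Batf and Tox2. Conventional replicate 1 was the highest for 5, namely Cd40lg, Cxcr5, Icos, Bcl6 and Ascl2. Conventional replicate 6 was the lowest for Cd40lg, Bcl6 and Tox2, yet the highest for Il4, Batf and Maf.

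**Figure D2:**
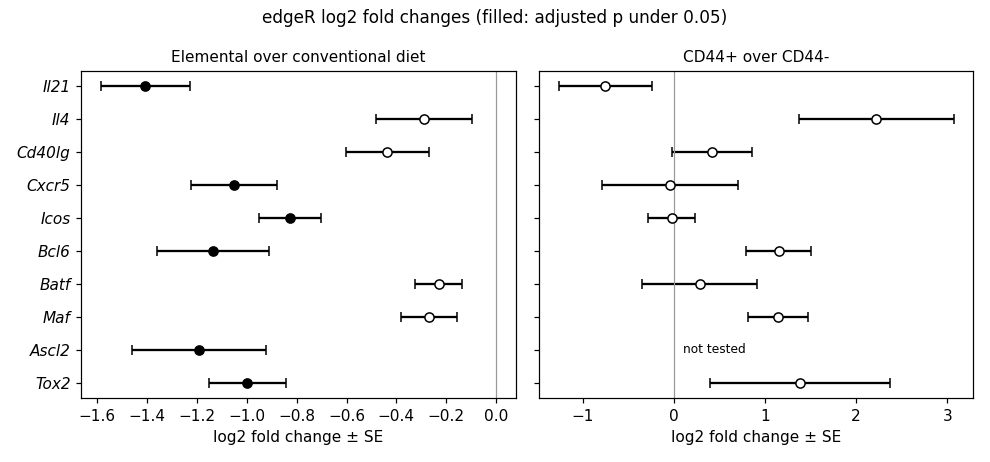
Log2 fold changes from edgeR with their standard errors (x axis) for each gene (y axis), elemental over conventional diet on the left panel and CD44+ over CD44- on the right panel; filled points have an adjusted p under 0.05. On the left 6 of 10 are filled and all lie below 0, and on the right none of the 9 tested is filled and the bars are wider.

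Compared per kb of exon, a level that can be set between genes, Batf was the most abundant on the elemental diet at 65.9 ± 8.22 CPM per kb, ahead of Cxcr5 at 29.4 ± 8.97 CPM per kb without overlap. Icos, Cd40lg and Maf followed, each overlapping its neighbour, from 28.7 ± 5.48 to 22.4 ± 3.35 CPM per kb. Il4 came next at 10.8 ± 3.04 CPM per kb, below Maf without overlap, and Tox2, Il21, Bcl6 and Ascl2 followed down to 2.59 ± 1.21 CPM per kb. On the conventional diet the order was Batf at 77.3 ± 6.78 CPM per kb, then Cxcr5, Icos, Cd40lg, Maf, Tox2, Il21, Il4, Bcl6 and Ascl2 at 5.91 ± 1.25 CPM per kb, and every pair of neighbours overlapped. Il4 stood above Tox2 and Il21 in the order on the elemental diet, overlapping Tox2 but not Il21, and below them on the conventional diet, overlapping Il21 but not Tox2.

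The number of Il21 reads per Il4 read in the same library does not depend on the scaling of the libraries. This ratio ranged from 1.21 to 2.77 with a median of 1.40 on the elemental diet, and from 2.35 to 5.19 with a median of 3.38 on the conventional diet. Of the 6 elemental libraries, 5 lay below all conventional libraries. The mean log2 ratio was 0.68 ± 0.47 on the elemental diet and 1.78 ± 0.40 on the conventional diet (SD, n = 6 each), a difference of -1.11. This pair was picked after the ratios of all 45 pairs of the 10 genes had been examined, so the difference is given as a description with no test.

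**Figure D3:**
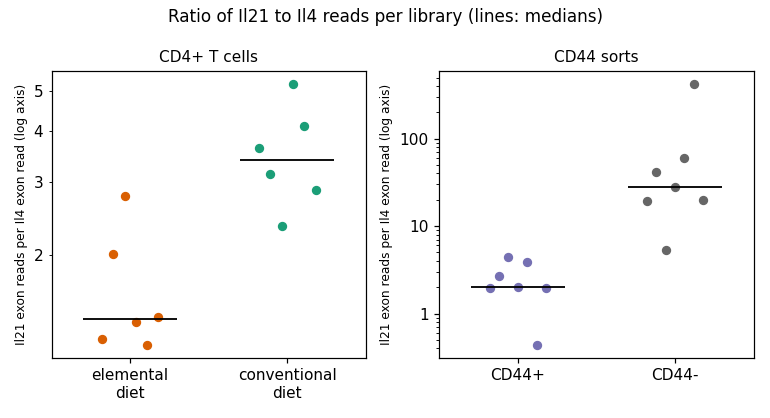
Il21 exon reads per Il4 exon read in each library (log axes, lines are medians), with 0.5 added to both counts; elemental left of conventional diet, and CD44+ left of CD44-. The medians are 1.40 and 3.38 in the diet panel, and 2.02 and 28.2 in the CD44 panel, where the groups do not overlap.

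Intron reads gave a further readout. They can come from unspliced transcripts, but their origin was not tested here. Il21 had 0 to 10 intron reads per library on the elemental diet and 24 to 53 on the conventional diet, or 0.30 ± 0.22 and 1.70 ± 0.47 CPM (SD, n = 6 each). Tox2 had 17 to 66 and 86 to 156 intron reads on the elemental and conventional diets, or 2.42 ± 0.82 and 5.53 ± 1.66 CPM. Neither gene had any overlap between the diets in introns, as in exons. Cxcr5 and Icos, whose exon groups did not overlap either, did overlap in introns. Cxcr5 had 2.57 ± 0.42 and 3.70 ± 1.10 intron CPM on the elemental and conventional diets, and Icos had 7.57 ± 2.06 and 9.46 ± 1.27. Ascl2 overlapped in introns too, at 0.32 ± 0.18 and 0.51 ± 0.21 CPM. The share of all genes without overlap in introns was not counted. Bcl6, whose exon reads fell, had 6.44 ± 1.58 intron CPM on the elemental diet and 6.94 ± 1.85 on the conventional diet, with overlap. Il4 had 6.83 ± 1.53 and 6.07 ± 2.54 intron CPM, again with overlap. For these 2 genes introns made up much of the signal, with 21.6% to 41.9% of Bcl6 gene reads on the elemental diet and 10.6% to 39.9% on the conventional diet, and 33.3% to 47.0% and 20.8% to 39.6% of Il4 gene reads. The intron reads were not tested.

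**Figure D4:**
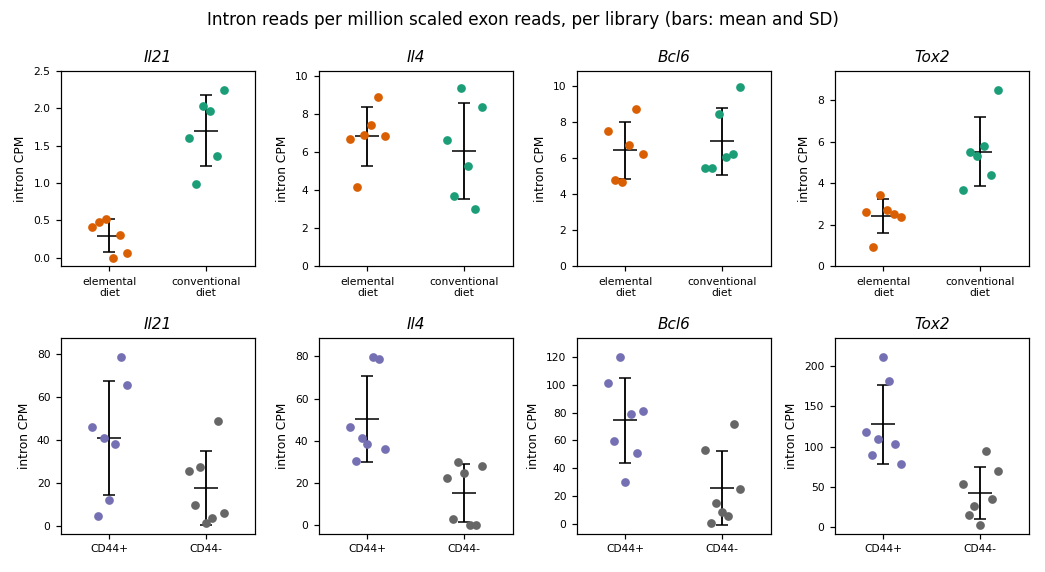
Intron reads of Il21, Il4, Bcl6 and Tox2 in each library, scaled as the exon CPM (linear axes, bars are mean and SD), elemental left of conventional diet in the upper row and CD44+ left of CD44- in the lower row. In the upper row Il21 and Tox2 have no overlap while Il4 and Bcl6 overlap, and in the lower row Il4 has no overlap.

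Genes that work with these 10 were taken from further lists. Of 15 surface and secreted genes of follicular helper cells, 10 fell on the elemental diet and 0 rose, with a median log2 fold change of -0.61 beside -0.01 for all genes. Sostdc1, a secreted BMP and WNT inhibitor, averaged 19.0 ± 5.73 CPM on the elemental diet and 64.3 ± 16.6 CPM on the conventional diet, a log2 fold change of -1.76 ± 0.19. S1pr2, a receptor that holds cells in the germinal centre, averaged 28.1 ± 1.76 and 61.7 ± 10.9 CPM, with -1.14 ± 0.11, though germinal centre B cells express it as well. Pdcd1, the gene of the inhibitory receptor PD-1, averaged 88.7 ± 11.7 and 146 ± 11.7 CPM, with -0.72 ± 0.09. Of 12 partner regulators, 7 fell and 0 rose, with a median of -0.51, and the lowest were Pou2af1 at -1.37 ± 0.15 and Tox at -0.76 ± 0.14.

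Genes that oppose the state or mark other helper cells gave mixed counts. Of 12 antagonists 2 rose and 1 fell. Ccr7, which retains cells in the T cell zone, averaged 428 ± 61.4 CPM on the elemental diet and 297 ± 32.2 CPM on the conventional diet, and S1pr1, the exit receptor, also rose, by 0.35 ± 0.09 on the log2 scale. Stat5b fell by 0.42 ± 0.12 on that scale. Prdm1, the repressor that opposes BCL6, was scarce at 3.54 ± 1.02 and 3.43 ± 1.60 CPM on the elemental and conventional diets, with a log2 fold change of 0.04 and an adjusted p of 0.951 in edgeR.
Among Th2 genes, 4 of 6 were tested, and Ccr8 and Il1rl1 rose. Gata3, the Th2 master regulator, was at 19.1 ± 4.05 and 18.4 ± 5.14 CPM, with an adjusted p of 0.868 in edgeR. Il5 was too scarce to test, at 0 in every elemental library but not in all conventional libraries. Of 7 Th17 genes 1 rose and 1 fell. Il17a fell by 2.71 ± 0.75 on the log2 scale. Of 7 regulatory T cell genes, Ebi3 and Tnfrsf18 rose, while Foxp3 was at 33.9 ± 7.47 and 24.2 ± 5.19 CPM with an adjusted p of 0.0618 in edgeR. Of 3 tested innate-like genes among 8, Tyrobp and Kit rose and Klrb1c fell. In a further list of 4 genes, Cxcl13, the gene of the follicle chemokine, fell and 0 rose.

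Markers of other cells differed between the diets along with the genes above. On the elemental diet 7 of 7 tested markers of germinal centre B cells fell, with a median of -2.89 (Gcsam -3.65 ± 0.53), and the list of 9 summed to 44.9 to 59.3 CPM on the elemental diet and 105 to 189 CPM on the conventional diet, without overlap. Of 7 plasma cell markers 4 fell (395 to 867 CPM and 925 to 1969.8 CPM summed, without overlap), and of 14 B cell markers 2 fell (283 to 581 and 434 to 806 CPM). Of 13 myeloid markers 11 rose (874 to 1616 and 442 to 608 CPM) and of 15 epithelial markers 8 rose (1057 to 2270 and 87.8 to 1203 CPM), while 0 of 3 tested stromal markers passed. Of 12 T cell core genes 3 fell, Cd5, Cd6 and Zap70, and Cd4 averaged 239 ± 45.9 CPM on the elemental diet and 353 ± 78.6 CPM on the conventional diet, with an adjusted p of 0.0250 in edgeR. Cd44 also fell, at 91.2 ± 17.2 and 138 ± 14.7 CPM. With libraries scaled to the T cell core genes instead, the log2 fold change of Il21 was -1.40 and the same count of 6 was called. The part of the other markers in the fall of the 6 genes, Bcl6 and Cxcr5 among them, was not tested. Nor was it tested for the partner genes of follicular helper cells, such as Pou2af1 and S1pr2.

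By the root-mean-square difference of centred log2 CPM over the 12 CD4+ libraries and 11938 genes, the patterns most like Il21 were those of Ptpn11 (0.185), Rnf157 (0.245) and Nanos1 (0.251). Those most like Bcl6 were Lrba (0.152), Gtf2f1 (0.169) and Aak1 (0.192). Over the 14 CD44 libraries and 8343 genes the nearest to Il21 were Dock2 (0.644), Inpp4b (0.715) and Irf2 (0.736), and the nearest to Bcl6 were Lgals1 (0.357), Srgn (0.365) and Mrps36 (0.367). No gene was shared between the lists of the CD4+ and the CD44 libraries.

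The second comparison asked how CD44+ cells differed from CD44- cells. Here 9 of the 10 genes could be tested and none was called by edgeR, where 0.767% of 8343 genes tested were called in either direction, 0.3% higher and 0.467% lower. Il4, Bcl6 and Maf had an unadjusted p under 0.05, as had 13.4% of all genes, and all were higher in CD44+ cells. DESeq2 called Il4 and Bcl6 (adjusted p of 0.0319 and 0.0316) and 4.9% of 8181 genes, and limma-voom called 0 of the 9 and 0.995% of all genes. The median log2 fold change was 0.41 over the 9 genes and 0.03 over all genes. Cd44 itself was at 157 ± 94.5 CPM in CD44+ cells and 81.2 ± 30.2 CPM in CD44- cells, with an adjusted p of 0.303 in edgeR.

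Bcl6 ranged from 135 to 258 CPM with a median of 163 CPM in CD44+ cells, and from 38.5 to 118 CPM with a median of 84.0 CPM in CD44- cells. It was the 1 gene of the 10 with no overlap, and 0.396% of all genes lay wholly higher in CD44+ cells. Its log2 fold change was 1.15 ± 0.35 with an adjusted p of 0.135 in edgeR. Maf ranged from 213 to 533 CPM with a median of 397 CPM in CD44+ cells, and from 65.6 to 262 CPM with a median of 188 CPM in CD44- cells. Of the 7 CD44+ libraries 5 lay above all CD44- libraries for Maf, and the log2 fold change was 1.14 ± 0.33 with an adjusted p of 0.114 in edgeR.

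The cytokines lay in opposite directions, though neither passed the test. Il4 ranged from 14.7 to 62.1 CPM with a median of 21.3 CPM in CD44+ cells, and from 0.128 to 16.2 CPM with a median of 2.86 CPM in CD44- cells. Of the 7 CD44+ libraries 6 lay above all CD44- libraries, and the log2 fold change was 2.22 ± 0.85 with an adjusted p of 0.249 in edgeR. Il21 ranged from 10.4 to 121 CPM with a median of 42.2 CPM in CD44+ cells, and from 56.4 to 240.4 CPM with a median of 82.3 CPM in CD44- cells. The groups overlapped, with a log2 fold change of -0.75 ± 0.51 and an adjusted p of 0.592 in edgeR. Il21 reads per Il4 read ranged from 0.442 to 4.38 with a median of 2.02 in CD44+ cells, and from 5.29 to 424 with a median of 28.2 in CD44- cells. All 7 CD44+ libraries lay below all 7 CD44- libraries in this ratio. The mean log2 ratio was 1.04 ± 1.09 in CD44+ cells and 5.12 ± 1.94 in CD44- cells (SD, n = 7 each), a difference of -4.07, again picked after all 36 pairs of the tested genes had been examined and given with no test. In both comparisons the ratio was lower in the elemental or CD44+ libraries.

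The remaining genes spread widely within each group. Icos ranged from 371 to 694 CPM with a median of 419.9 CPM in CD44+ cells and from 342 to 768 CPM with a median of 516 CPM in CD44- cells, with a log2 fold change of -0.03 ± 0.26. Cxcr5 ranged from 13.9 to 152 CPM with a median of 79.7 CPM in CD44+ cells and from 3.16 to 263 CPM with a median of 41.3 CPM in CD44- cells, with a log2 fold change of -0.05 ± 0.75, and the sign of both turned positive with DESeq2's size factors (0.02 for Icos and 0.11 for Cxcr5). Cd40lg, Batf and Tox2 had log2 fold changes of 0.41 ± 0.44, 0.28 ± 0.63 and 1.39 ± 0.99, with adjusted p of 0.760, 0.896 and 0.610 in edgeR. Ascl2 was too scarce to test, with 0 to 4 reads in 13 of the 14 libraries and 101 reads, or 12.1 CPM, in CD44+ replicate 4.

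Per kb of exon, Icos led in both sorts at 142 ± 39.5 CPM per kb in CD44+ and 144 ± 45.6 CPM per kb in CD44- cells, followed by Batf at 132 ± 71.4 and 109 ± 91.2 CPM per kb and Cd40lg at 82.3 ± 25.0 and 61.7 ± 36.4 CPM per kb. Below them came Bcl6, Maf, Il4, Cxcr5, Il21, Tox2 and Ascl2 in CD44+ cells, and Il21, Cxcr5, Bcl6, Maf, Il4, Tox2 and Ascl2 in CD44- cells. All neighbours in these orders overlapped.

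Introns held a large part of the reads of several genes in the CD44 libraries. Tox2 had 128 ± 49.2 intron CPM in CD44+ cells and 42.5 ± 32.5 in CD44- cells, with introns at 69.7% to 99.4% and 60.2% to 98.9% of its gene reads. Il4 had 50.2 ± 20.4 and 15.4 ± 13.8 intron CPM, and its groups did not overlap (30.3 to 79.5 CPM in CD44+ and 0 to 29.9 CPM in CD44-). Cxcr5 had 144 ± 50.1 and 39.9 ± 43.6 intron CPM, with overlap in introns (47.6 to 205 CPM in CD44+ and 5.69 to 106 CPM in CD44-) as in exons. Il21 had 40.8 ± 26.3 and 17.6 ± 17.2 intron CPM, so that its mean was higher in CD44+ cells in introns and lower in exons, with overlap in both. With exon and intron reads counted together, edgeR called Bcl6 with an adjusted p of 0.0280. That fit called 101 of 10976 genes tested. Over all genes, introns took 20.6% to 29.0% of gene reads in CD44+ and 9.39% to 27.0% in CD44- libraries. The part of this difference between libraries in the intron values of single genes was not tested.

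Of the 15 surface genes 0 were called in CD44+ cells, and Pdcd1 was at 114 ± 50.5 CPM in CD44+ and 104 ± 78.1 CPM in CD44- cells. Of 12 partner regulators Lef1, a TCF family factor of naive and follicular helper cells, fell to 162 ± 95.8 CPM in CD44+ cells against 554 ± 137 CPM in CD44- cells. Of 12 antagonists Id2, an inhibitor of E proteins, rose to 739 ± 189 CPM in CD44+ cells against 292 ± 136 CPM in CD44- cells, and S1pr1 fell, with 80.0 ± 23.4 CPM in CD44+ and 249 ± 128 CPM. Plasma cell markers were higher in CD44+ libraries along with Bcl6, Il4 and Maf: Jchain and Mzb1 rose among 5 tested of 7, and the list summed to 3840.3 to 8099 CPM in CD44+ and 397 to 3135 CPM in CD44- libraries without overlap. For B cell markers the sums were 664 to 2595 and 317 to 1704 CPM, and for germinal centre B cell markers 136 to 416 and 63.1 to 272 CPM, with none called. Tyrobp, an adaptor of natural killer and myeloid cells, averaged 197 ± 72.8 CPM in CD44+ and 26.8 ± 19.6 CPM in CD44- cells. The list of 8 innate-like, basophil and mast cell genes that holds Tyrobp summed to 262 to 484 CPM in CD44+ and 27.1 to 237 CPM in CD44- libraries, without overlap. Of these 8 genes 2 were tested, and Tyrobp alone was called. Among the basophil and mast cell markers of the list, Fcer1a, Mcpt8 and Ms4a2 were at 0 in all 14 libraries. Cpa3 and Kit were not at 0 throughout but were too scarce to test. Basophils and mast cells also make IL-4. The part of these markers in the higher Il4 and Bcl6 values was not tested. Cd4 was at 38.8 ± 22.2 CPM in CD44+ and 166 ± 157 CPM in CD44- cells (adjusted p of 0.0950 in edgeR), and Foxp3 was too scarce to test.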

How the data were processed

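RNA was sequenced in 26 libraries of 4 groups. For each library the authors deposited whole read counts per gene for exons, introns, exon-exon junctions and whole genes, per the file headers, in 25814 genes, of which 3759 have an exon length of 0 and hold no exon reads. The submitters' processing notes name GRCm38. An aligner, a counter and a strand setting are not given in the sources read. TPM and RPKM columns were not used. No pair of libraries of a group agreed within sampling noise (lowest chi-square per degree of freedom 11.9 over genes with at least 20 reads).

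Each pair of groups was fitted alone on total exon reads with edgeR 4.0.16 (filterByExpr, TMM, robust quasi-likelihood fit, two-sided test), and a gene was called at an adjusted p under 0.05 (Benjamini-Hochberg, over all genes tested). Standard errors are the log2 fold change over the root of the F statistic. Alternatives used DESeq2 1.42.0, limma 3.58.1, other scalings, filters and read classes, and each library left out. The code was tested on simulated data. The scripts ran in R 4.3.3 and Python 3.11.15, with pandas 2.3.3 for tables, numpy 2.4.6 for arrays and matplotlib 3.10.9 for figures. Log2 CPM used a prior count of 2.

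The 10 genes and the lists were chosen with earlier results of these data known. All 10 are named whatever their values. From each further list the text could name up to 2 called genes per direction whose mean log2 CPM reached 2, and Pdcd1, Prdm1, Foxp3, Gata3, Cd4 and Cd44 in any case. Some genes that met this rule are not reported here. Il1rl1, Zap70, Cxcl13, Cpa3, Kit in CD44 libraries, Il5 and the genes at 0 were named after their values were seen. For Il21 and Bcl6 the 3 genes with the nearest pattern are named. The ratio of Il21 to Il4 was added after the data were seen.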

Additional observations from a re-analysis of the deposited data

Results flagged for a closer look

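Of 40 sets of libraries examined (10 genes in 4 groups), 3 held a library far from the others of its group by Dixon's criterion. For normally distributed values chance alone meets it in about 1 in 20 sets. It was applied to CPM, which need not be so distributed, so that the rate here may differ. All 3 such sets were in the CD44 libraries. Il4 reached 62.1 CPM (524 exon reads) in CD44+ replicate 1, where the next library of the group was at 23.5 CPM. Ascl2 reached 12.1 CPM (101 reads) in CD44+ replicate 4, where the next was at 0.576 CPM. Il21 reached 240.4 CPM (2504 reads) in CD44- replicate 1, where the next was at 109 CPM.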

How the results depend on the processing

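In the diet comparison no log2 fold change of the 10 genes changed sign under any alternative. Of 2081 genes called, limma-voom gave 4095, exon-exon junction reads (added after seeing the data) 949, the fit without conventional replicate 6 and elemental replicate 1 3379, and leaving out single libraries 1299 to 3865 (lowest with conventional replicate 4 left out, 1316 with elemental replicate 4 left out, highest with conventional replicate 6 left out). The fit of all 4 groups called 2 genes and 0 of the 10, with Il21 at -1.40 and an adjusted p of 0.334. That fit shares 1 spread over groups whose median SD of log2 CPM differs as given above. Leaving out single libraries called 6 to 7 of the 10. For CD44, 64 genes were called, 401 with DESeq2, 101 with total gene reads, 1748 in the fit of all 4 groups, and 36 to 87 with single libraries left out (36 without CD44+ replicate 5 or 7, 37 without CD44+ replicate 6, 41 without CD44- replicate 4). Of the 10, DESeq2 called 2, total gene reads 1 and the fit of all 4 groups 4 (Il4, Bcl6, Maf and Ascl2), where Ascl2 passed the filter through the CD4+ libraries and rests on 101 reads in CD44+ replicate 4, against 0 with single libraries left out. Cxcr5 (-0.05) became 0.11 with DESeq2 or its size factors, 0.13 with limma-voom, 0.021 with unique reads, 0.65 with gene reads, 0.17 in the fit of all 4 groups, 0.77 with the replicate block and -0.31 to 0.65 with single libraries left out. Icos (-0.03) became 0.023 with DESeq2 or its size factors, 0.0037 with unique reads, 0.073 in the fit of all 4 groups and -0.13 to 0.11 with single libraries left out. The cause of these changes was not tested. Both CD44 sorts carry the same replicate numbers with the same gap, and whether same-numbered libraries share a source is not stated. Correlations of same-numbered libraries were -0.142 to 0.271 for diet, with 2 of 6 over 0.1. For CD44 they were -0.0423 to 0.115, with 1 of 7 over 0.1. Such values cannot decide whether the numbers mark pairs, as a shared source need not outweigh the spread between libraries. In each comparison 1 library correlated best with its own number. With the replicate block 2033 genes and 6 of the 10 were called for diet, and 37 genes and 0 of the 10 for CD44. The Il21 to Il4 log2 ratio difference kept its sign with each read class (-3.42 with total gene reads for CD44) and with single libraries left out (-1.27 to -0.99 for diet, -4.53 to -3.47 for CD44). Few reads limit Ascl2, and junction reads limit Maf, Cxcr5 and Ascl2.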
